A study of Mus musculus with 16 samples.

Results

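The baseline transcriptome of the mouse cerebral cortex at embryonic day (E)15.5 was described in the 7 ctrl mice of a study of *Knl1* deletion, out of 16 RNA-seq samples in the series. All samples labelled ctrl were taken, and none of the conditional knockout (cKO) or double knockout (dKO) samples was used. *Knl1*, given under its older symbol *Casc5* in the labels, encodes a kinetochore scaffold that dividing cells need for chromosome segregation. The labels give mice 2, 6, S1, S3 and T3 as wild type at this locus, and T4 with T5 as heterozygous. They do not give the *Trp53* genotype of the ctrl mice. All mice were of mixed genetic background, and whether a ctrl mouse carried *hGFAP-Cre*, the transgene that drives deletion in cortical progenitors of cKO and dKO, was not given in the sources used here. Mice 2 (male) and 6 (female) were from litter 1, S3 and S1 (both male) from litter 2, and T3 (male), T4 and T5 (both female) from litter 3. Mice 2, 6 and S3 are labelled batch 1, S1 batch 2 and T3, T4 and T5 batch 3, and the labels do not say what the batches are. Litter 3 and batch 3 hold the same mice and cannot be told apart, and both heterozygous mice are among them.

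At this age the cortical wall builds its neurons. Radial glia, the apical neural progenitor cells (NPCs), line the ventricle, divide, and give rise to intermediate progenitors, which in turn produce excitatory neurons for the cortical plate, deep layers before upper layers. Inhibitory interneurons are born outside the cortex, in the ganglionic eminences, and migrate in. Astrocytes and oligodendrocytes largely form later, while blood vessels, microglia and the meninges are already in place. RNA was extracted from whole cortical tissue, so that fewer cells of a type and less RNA per cell cannot be told apart.

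Libraries were depleted of ribosomal RNA and made by Click-seq, in which a unique molecular identifier (UMI) lets PCR copies of a cDNA be counted once. The total per mouse was between 399832 (T3) and 3266227 (mouse 6) deduplicated counts, with a median of 1021502. Levels are given as CPM, the gene count scaled to the same total in every mouse. A level of 3 counts corresponded to 0.918 CPM in the deepest library and 7.50 CPM in the shallowest, and these floors cover counting error only. Between 14177 and 18269 genes per mouse had a count. When every library was thinned to 399832 counts, that number was between 13314 and 14184. Over all 7 mice, 22573 of 51912 listed genes had a count, and 11118 had a count in every mouse and a mean of at least 1 CPM. The spread between mice is biological and technical together, since there was 1 library per mouse. Spearman correlations across genes between pairs of mice ranged from 0.886 to 0.967. Every pair differed by more than sampling noise (chi-square per degree of freedom 1.78 to 8.36). Both measures depend on depth. The largest chi-square values were those of mouse 6 with S3 (8.36) and with S1 (6.80), which are the deepest libraries.

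Protein-coding genes held 94.6% ± 0.875 of counts (SD, n = 7 mice), with a range from 93.3 to 95.4%. Long intergenic non-coding RNAs held 2.14% ± 0.183 and processed transcripts 1.16% ± 0.0571. Antisense transcripts held 0.358% ± 0.0226. The share of the mitochondrial ribosomal RNAs was 1.21% ± 0.831 and varied most among the larger classes. It was 2.57% in S1, 2.20% in S3 and 1.11% in mouse 6, and between 0.509 and 0.744% in the other mice, so that both mice of litter 2 stood highest. Genes of cytoplasmic ribosomal proteins, of which 78 of 83 reached 1 CPM, together held 0.279% ± 0.0220 of counts. Reads that align to several places were not counted, and their part in this share was not tested.

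Counts were dominated by long genes. The 566 protein-coding genes with a gene body over 300 kb make up 2.59% of protein-coding genes, and held 27.4% ± 1.41 of all counts, from 25.1% in S3 to 29.1% in mouse 2. The 7765 protein-coding genes under 10 kb make up 35.5% of genes and held 4.86% ± 0.222. Every mouse showed this order. Across the 12825 protein-coding genes at 1 CPM or more, mean CPM had a Spearman correlation of 0.486 with body length and 0.515 with exon length. Genes are not independent replicates, and this is a description over genes.

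**Figure D1:**
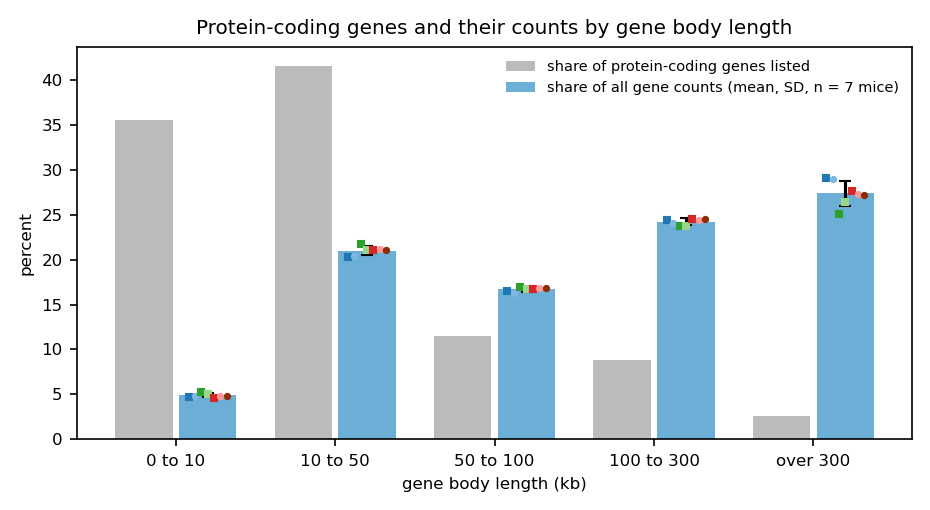
Share of protein-coding genes (grey bars) and share of all gene counts (blue bars, mean with SD; points are the 7 mice) in percent, by class of gene body length in kb. Genes over 300 kb were 2.59% of genes and held 27.4% of counts, and genes under 10 kb were 35.5% of genes and held 4.86%.

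The deposited counts behaved as counts over whole gene bodies, introns included, on 1 strand. Of 4048 genes lying inside an intron of a coding gene on the same strand, 12 (0.296%) had any count, against 850 of 3489 (24.4%) for genes inside an intron on the opposite strand and 21656 of 44117 (49.1%) elsewhere. Of 571 nuclear protein-coding genes at least 99% covered by another gene of the same strand, 531 (93.0%) had no count, compared with 25.3% of the others. They include the radial glia gene *Sox2*, which lies within *Sox2ot*, the intermediate progenitor gene *Neurod1* within *Cerkl*, the upper-layer gene *Pou3f3* within AC122898.1 and the neuronal tubulin gene *Tubb3* within *Gm20388*. *Sox2ot* itself had 1754 CPM ± 233. A value of 0 for these 4 genes is therefore no measurement of them.

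The gene with the highest mean was *mt-Rnr2*, a mitochondrial ribosomal RNA, at 9331 CPM (lowest 4378, median 6249, highest 18759). Next was *Auts2*, a regulator of transcription and of neuronal migration, whose body covers chr5:131437333-132543344 (GRCm38). Its level was 7667 CPM in the lowest mouse, 7976 in the median and 8369 in the highest (8007 ± 272), a CV of 3.39%. *Nrxn3*, a presynaptic adhesion molecule, followed at 5464 CPM ± 769, with 3948 in mouse 6 as the lowest value. The nuclear RNA *Malat1* had 5065 CPM ± 534, and *Gm26917*, annotated as a long intergenic non-coding RNA, 4558 ± 1052. *Gm26917* (chr17:39843013-39846341) lies beside *Gm42418* (chr17:39846958-39848788) on the same strand, and the origin of their counts was not tested. The next genes in order were *Celf2* (4543 CPM), which encodes an RNA-binding protein, *Ctnna2* (4351), an alpha-catenin of neurons, *Ptprd* (4110), a synaptic receptor phosphatase, *Dcc* (3876), the netrin receptor that guides axons, and *Nrg1* (3689), a ligand of ERBB4. *Nfib*, *Map1b* and *Tenm2* had between 2842 and 3416 CPM, and *mt-Rnr1* closed the 15 highest at 2746 (707 to 6892). Of these 15 genes, 10 have a body over 300 kb. In the 7 of the top 10 with a body over 100 kb, exons make up only 0.633 to 2.67% of the body. The top 10 genes together held 5.30% of counts, the top 100 held 20.1% and the top 1000 held 54.7%.

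Divided by gene body length, the order of nuclear protein-coding genes was another, and none of the 10 highest by CPM was among the 10 highest per kb. *Nnat*, an imprinted gene of developing neurons, came first among these with 303 CPM per kb ± 54.6, followed by *Actb*, cytoplasmic actin (288 ± 22.4), and *Marcksl1*, a regulator of actin (245 ± 25.1). A replication-dependent histone gene, *Hist1h2ak*, had 193 CPM per kb ± 53.3. *Sox11* and *Sox4*, transcription factors of newborn neurons, had 180 ± 12.5 and 99.2 ± 10.7 CPM per kb. The tubulin genes *Tubb5* and *Tubb2b* had 122 and 120, *Hsp90ab1*, a chaperone, 109 and *Rplp1*, a ribosomal protein, 103. Divided by exon length in place of body length, 3 of these 10 remained, *Nnat*, *Actb* and *Marcksl1*, and the long genes *Ctnna2* and *Rbfox1* came first of the nuclear genes. The mitochondrial gene *mt-Co1* had 1359 CPM per kb, above all of these. Since introns were counted, levels per kb of the markers use the gene body. The order of markers was another per kb of exons, and such values are given for some of them.

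Cell types were read from 22 lists of marker genes. The levels of single markers can be followed in the plot of marker genes by mouse. For comparison, 58.7% of the 21857 protein-coding genes reached 1 CPM, and the median of those that did was 23.5 CPM, or 0.918 CPM per kb.

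**Figure D2:**
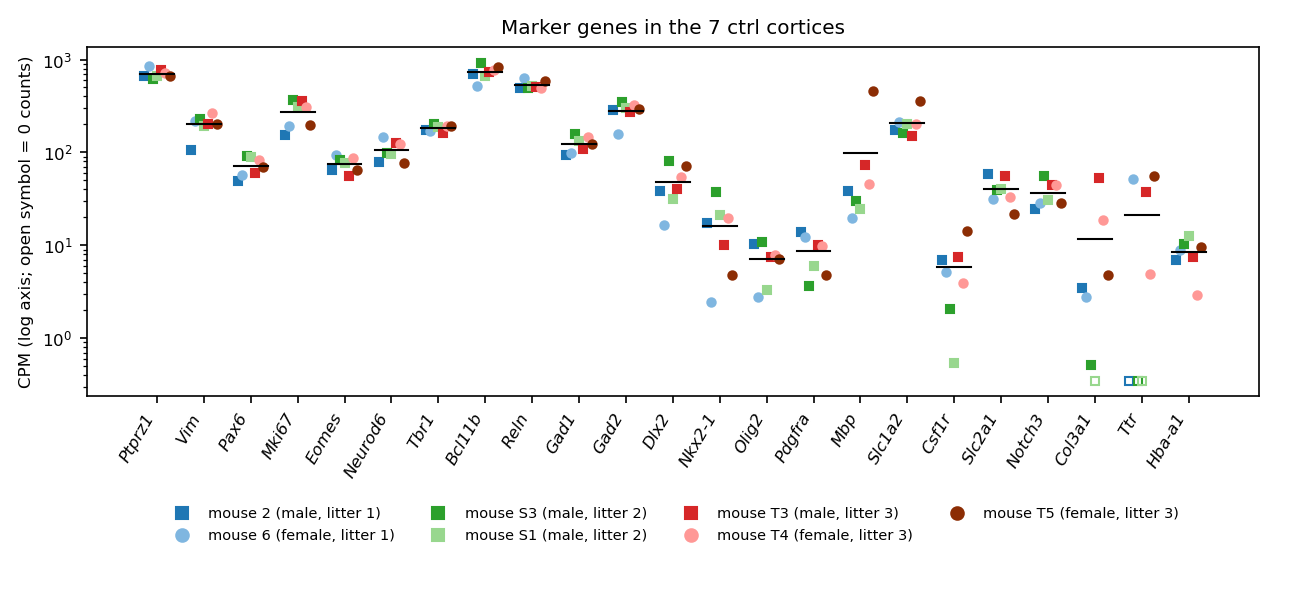
Level of marker genes in CPM (log axis) in each of the 7 ctrl mice, coloured by mouse and litter, squares for males and circles for females, with the mean as a bar and open symbols for 0 counts. *Tbr1* lay between 160 and 202 CPM in all mice, whereas *Mbp* was 460 CPM in T5 and 19.9 to 72.5 in the others.

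Apical progenitor genes were measured in 11 of 12 cases at 1 CPM or more, with *Sox2* hidden as described. Their summed level was 1490 CPM ± 128, a CV of 8.56%. *Pax6*, the transcription factor that marks radial glia (chr2:105668900-105697364), had 48.7 CPM in mouse 2, 57.6 in mouse 6, 91.5 in S3, 89.6 in S1, 60.025 in T3, 82.2 in T4 and 69.5 in T5. Litter 2 was high and litter 1 low, and the litter 3 values lay between them. Per kb, the list was led by *Vim* (22.6 CPM per kb ± 5.41), the intermediate filament of radial glia, *Fabp7* (15.2 ± 2.23), a fatty acid binding protein, and *Nes* (13.5 ± 3.87), which encodes nestin. *Pax6* had 2.51 CPM per kb ± 0.590. *Ptprz1*, a receptor phosphatase of radial glia, contributed the most counts of the list at 707 CPM ± 79.5. The Notch target genes *Hes1* (8.35 CPM ± 3.74) and *Hes5* (3.71 ± 2.93) were near the counting floor of the shallow libraries.

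All 12 genes of cycling cells were at 1 CPM or more, summing to 723 CPM ± 181. Their CV of 25.1% was the largest of the progenitor and neuron lists. The antigen gene *Mki67* had 155 CPM in mouse 2, 193 in mouse 6 and 196 in T5, and between 307 and 367 in S1, T4, T3 and S3. *Top2a*, the topoisomerase of mitosis, ranged from 108 to 211 CPM with a median of 178. The list sums fell into the same lower and higher mice, from 489 to 967 CPM, and no label divides the mice in this way.

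Intermediate progenitor genes summed to 337 CPM ± 42.3, with 9 of 10 at 1 CPM or more and *Neurod1* hidden. *Eomes*, the T-box factor that defines these cells (chr9:118478212-118486132), had 64.4 CPM in mouse 2, 94.9 in mouse 6, 82.7 in S3, 77.6 in S1, 55.0 in T3, 88.1 in T4 and 64.7 in T5, a mean of 75.3 ± 14.4. Its CV of 19.2% compares with 13.1% from Poisson counting at these depths. Per kb the proneural gene *Neurog2* stood at 15.6 CPM ± 3.47, *Insm1*, a zinc finger factor of basal progenitors, at 13.7 ± 4.08 and *Eomes* at 9.51 ± 1.82. The SDs of *Neurog2* and *Insm1* overlap.

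Excitatory neuron genes were at 1 CPM or more in 9 of 9 cases and summed to 4364 CPM ± 317, of which *Nfib*, a long gene also active in progenitors, gave 3416 ± 242. *Neurod6* (chr6:55677822-55681263), a bHLH factor of postmitotic excitatory neurons, had 78.3 CPM in mouse 2, 146 in mouse 6, 98.2 in S3, 95.6 in S1, 128 in T3, 122 in T4 and 76.7 in T5. Per kb of gene body, *Neurod2* (34.98 CPM ± 5.80) and *Neurod6* (30.9 ± 7.62) were the highest of all markers listed, and their SDs overlap. Per kb of exons they had 47.1 and 49.5 CPM, below longer genes such as *Nfib* (228) and *Map2* (129). *Tbr1*, a T-box factor of early-born neurons, had 183 CPM ± 15.0, and its CV of 8.18% was no larger than the 8.38% that counting alone gives. Of the vesicular glutamate transporters, *Slc17a6* (VGLUT2) had 90.9 CPM ± 10.1 and *Slc17a7* (VGLUT1), which is the main form of the mature cortex, 22.8 ± 14.0. Per kb of body their means were alike, at 1.85 ± 0.205 and 1.87 ± 1.15. The mean of *Slc17a7* rested in part on mouse 2 (50.5 CPM) and T5 (31.1), with 8.74 to 19.9 in the others.

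Deep-layer genes summed to 5007 CPM ± 308 with 8 of 8 at 1 CPM or more, and upper-layer genes to 3207 CPM ± 276 with 8 of 9. *Bcl11b* (CTIP2), a factor of subcortically projecting neurons, had 735 CPM ± 129 (518 to 920), or 7.88 CPM per kb ± 1.38. *Sox5*, with a body of over 300 kb, had 2415 CPM ± 188. This came to 2.53 CPM per kb ± 0.197 of body and to 168 CPM per kb of exons. *Fezf2*, which specifies corticospinal neurons, was at 32.9 CPM ± 7.05. Of the upper-layer factors, *Cux1* (564 CPM ± 42.3) and *Cux2* (308 ± 51.2) were close to each other per kb, at 1.77 ± 0.133 and 1.59 ± 0.264, while *Pou3f2*, a POU factor, had 20.1 CPM per kb ± 4.92.

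The pan-neuronal list, which includes *Map2* (2119 CPM ± 66.5), the dendritic microtubule protein, and *Dcx* (1035 ± 76.8), doublecortin of migrating neurons, summed to 8632 CPM ± 506 and had the smallest CV of the lists, 5.87%. *Map2* varied by 3.14% between mice and Poisson counting gives 2.46%. Cajal-Retzius genes summed to 662 CPM ± 51.0. Most of these counts were *Reln* (531 CPM ± 52.5), which encodes the secreted signal reelin, while *Trp73* had 16.8 CPM ± 6.93, *Calb2* 3.78 ± 2.27 and *Lhx1* 1.28 ± 1.60.

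Interneuron genes were at 1 CPM or more in 18 of 18 cases and summed to 3724 CPM ± 317. *Gad1* (chr2:70553072-70602014), a GABA-synthesizing enzyme, had 94.0 CPM in mouse 2, 97.7 in mouse 6, 159 in S3, 134 in S1, 110 in T3, 145 in T4 and 122 in T5. *Gad2*, its paralog, had 159 CPM in mouse 6 and 270 to 346 in the other mice. *Erbb4*, the receptor of *Nrg1*, held the most counts of the list (1771 CPM ± 177). Per kb of gene body it had 1.65 ± 0.164, against 14.2 ± 6.77 for *Dlx2* and 10.1 ± 3.37 for *Dlx1*, homeobox genes of the ganglionic eminences. Per kb of exons the order was reversed, with 143 CPM for *Erbb4*, 16.7 for *Dlx2* and 11.0 for *Dlx1*. Of 18 members, 8 were lowest in mouse 6 and 9 were highest in S3. Among all genes of 20 CPM or more, S3 was highest in 12.3%, and the share lowest in mouse 6 was not determined. *Dlx6os1* is listed under more than 1 identifier with this symbol, and the longest was used (440 CPM ± 104).

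Genes of the ganglionic eminence and striatum, regions beside the dorsal cortex, summed to 637 CPM ± 200, with all 8 at 1 CPM or more. The sum was 239 CPM in mouse 6, with a median of 729 over mice and a highest value of 789. *Ebf1*, a factor of striatal neurons, accounted for most of it, at 213 CPM in mouse 6 and 437 to 726 in the others. *Nkx2-1*, the factor of the medial ganglionic eminence, had 17.4 CPM in mouse 2, 2.45 in mouse 6, 37.2 in S3, 21.3 in S1, 10.004 in T3, 19.6 in T4 and 4.79 in T5. *Isl1* was also lowest in mouse 6, at 8.27 CPM, with a median of 28.4. Genes that mark tissue ventral to the cortex were present in all libraries and varied more between mice than the cortical neuron lists did. Thalamic genes summed to 113 CPM ± 14.1, of which *Tcf7l2* gave 84.2 ± 11.2. None of the 8 hindbrain and spinal cord genes had a count in any mouse; *Hoxa3* and most of *Hoxa2* are covered by other genes, and over all mice 3 counts correspond to 0.318 CPM. Pallial patterning genes, among them *Emx1* (38.6 CPM ± 8.10) and *Lhx2* (131 ± 28.5), were all present and summed to 358 CPM ± 56.0.

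Glial genes were low at this age. Oligodendrocyte precursor genes summed to 44.1 CPM ± 9.50, with 5 of 7 at 1 CPM or more. *Olig2* (chr16:91225457-91228677), a bHLH factor of the oligodendrocyte lineage and of ventral progenitors, had 10.4 CPM in mouse 2, 2.76 in mouse 6, 10.9 in S3, 3.28 in S1, 7.50 in T3, 7.83 in T4 and 7.19 in T5. These are a few counts in the shallow libraries, and the CV of 44.2% was close to the 42.5% that counting gives. *Pdgfra* had 8.63 CPM ± 3.90. The defining astrocyte genes *Gfap* and *Aqp4* had 0.460 and 0.612 CPM, with no count in 4 and in 3 of the 7 mice. The astrocyte list summed to 261 CPM ± 88.9, most of it *Slc1a2*, a glutamate transporter that other neural cells also express (209 CPM ± 70.0). Microglial genes summed to 20.9 CPM ± 9.63 with 7 of 12 at 1 CPM or more, and *Csf1r*, the receptor that microglia need for survival, had 5.80 CPM ± 4.53.

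Vascular genes were present in every mouse. Endothelial genes summed to 158 CPM ± 35.7 with 11 of 11 at 1 CPM or more, with the most counts from the glucose transporter *Slc2a1* (lowest 21.6 CPM, median 39.3, highest 59.2) and the VEGF receptor *Flt1* (17.1, 22.3 and 47.5). Pericyte genes summed to 84.4 CPM ± 17.3 with 7 of 7, the most from *Notch3* at 36.8 CPM ± 11.7. *Rgs5*, a pericyte gene at 18.9 CPM ± 3.33, varied by 17.6% between mice where counting gives 26.1%. Counts of blood genes were low, with reads that align to several places left out. Erythroid genes summed to 21.9 CPM ± 6.70, and *Hba-a1*, an alpha-globin gene with a near-identical copy, had 8.40 CPM ± 3.04.

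Some of these lists stood high in a few mice. Myelin genes summed to 541 CPM in T5 and to 35.2 to 95.04 in the others, and T5 was highest in 6 of 8 members. Without T5 the mean was 53.0 CPM. *Mbp*, myelin basic protein, was 460 CPM in T5, against 19.9 to 72.5 in the others. The astrocyte list was also highest in T5, at 453 CPM against 192 to 264, with 5 of 7 members highest there, and so were *Apoe* (88.6 CPM, others 5.00 to 16.6) and *Cst3* (88.6, others 9.29 to 19.2), which are secreted glial products. The oligodendrocyte precursor gene *Olig1* had 16.8 CPM in T5 and a median of 2.501, but *Olig2* and *Pdgfra* were not highest in T5, and *Gfap* and *Aqp4* had 2.40 CPM each there. Meningeal fibroblast genes summed to 185 CPM in T3 and 12.6 to 81.3 in the others, and T3 was highest in 5 of 7. The collagen gene *Col3a1* had 52.5 CPM in T3 and 18.6 in T4, and 0 to 4.79 in the others. *Ttr*, transthyretin of the choroid plexus, was 51.4 CPM in mouse 6, 37.5 in T3, 4.89 in T4, 55.1 in T5 and 0 in mice 2, S3 and S1. Among all genes of 20 CPM or more, T3 was highest in 19.9% and T5 in 20.4%. T3 and T5 were the libraries with the fewest counts, and how dissection or the libraries take part in these values was not tested.

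**Figure D3:**
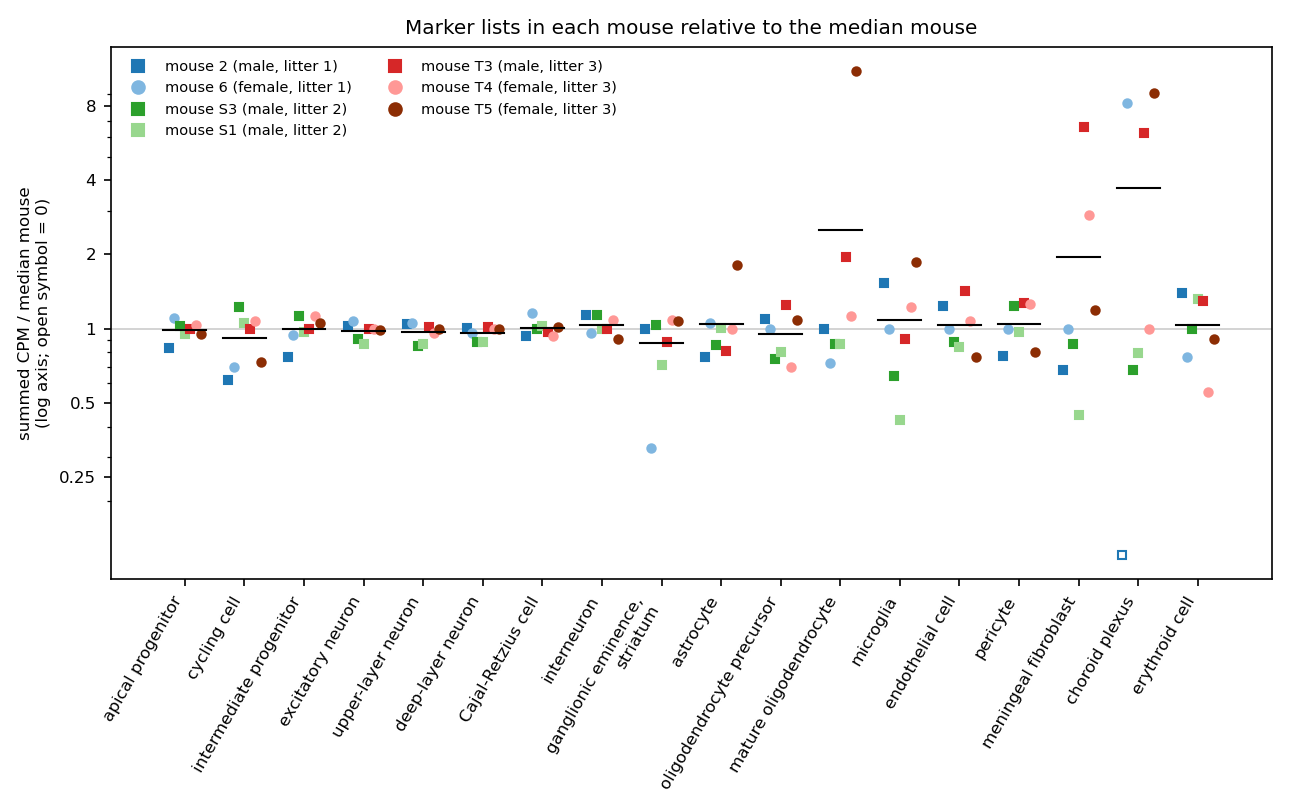
Summed CPM of each marker list in each mouse, divided by the median mouse (log axis), coloured by mouse and litter, with the mean as a bar and an open symbol for a sum of 0. Progenitor and neuron lists stayed near the median in all mice except for cycling cell genes, while T5 was high for the mature oligodendrocyte list (541 CPM), T3 for the meningeal list (185 CPM) and mouse 6 low for the ganglionic eminence and striatum list (239 CPM).

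The spread between mice was small for most genes. Over the 7123 genes of 20 CPM or more, the median CV was 18.3%, where Poisson counting gives 14.7%, and the median CV in excess of counting was 10.8%. In 1628 genes (22.9%) the variance was at or below that of counting. The common biological coefficient of variation estimated by edgeR was 13.6%. An excess CV above 50% was found in 65 genes (0.913%), and these were highest most often in T3 (18 genes) and T5 (16). Among all 7123 genes, T3 was highest in 19.9% and T5 in 20.4%.

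Several of the most variable genes were high in a single mouse, and others in more than 1. *Nrgn*, neurogranin of mature cortical neurons, led with 193 CPM in mouse 2 and 1.96 to 28.7 in the others. *Camk2n1*, an inhibitor of CaM kinase in mature neurons, had 180 CPM in T5 and 14.1 to 47.5 in the others. A list of 4 genes of mature neurons, added after seeing the data, was high in both of these mice. It summed to 510 CPM in mouse 2, 553 in T5 and 177 to 254 in the others. *Mbp*, *Apoe*, *Ttr* and *Cst3*, given above, and the sex-linked genes *Xist* and *Eif2s3y* were also among the 10 most variable. AC149090.1 had 158 CPM in mouse 6 and 5.69 to 54.0 in the others. At the other end, *Jag2*, *Slc35e3* and *Cant1* lay furthest below the spread that counting gives, with CVs of 7.59, 4.81 and 8.79% against 24.8, 23.6 and 24.7%. They are the least variable relative to counting, and not those of smallest CV.

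*Gm23935*, annotated as a microRNA gene, was high in more than 1 mouse. The values of mice 2 and 6, both of litter 1, were the lowest and the highest outside litter 2. It had 197 CPM in mouse 2, 635 in mouse 6, 2832 in S3, 1985 in S1, 270 in T3, 302 in T4 and 623 in T5, so that both mice of litter 2 lay above all others. It held most counts of the miRNA class, whose share was 0.290% in S3, 0.204% in S1 and 0.0219 to 0.0658% in the others. The sequence (GENCODE, GRCm38, chr16:11144125-11144181, plus strand) is shown because all of it is also found in the annotated genes *Gm24245* and *Gm24270*, so that the locus of origin of the counts is uncertain.
Gm23935: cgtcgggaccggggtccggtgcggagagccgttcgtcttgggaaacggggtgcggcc
*Gm42418*, annotated as a long intergenic non-coding RNA, had 460 CPM in the lowest mouse and 803 in the median. The highest was 2836 in T5, followed by S3 (2302) and S1 (1429). The mitochondrial ribosomal RNAs were highest in S1 and S3. The protein-coding genes *Cdk8* and *Cmss1* were also highest in S3 (2396 and 1139 CPM) and S1 (1750 and 721), followed by T5 (1212 and 601). The part of ribosomal RNA depletion in these values was not tested.

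**Figure D4:**
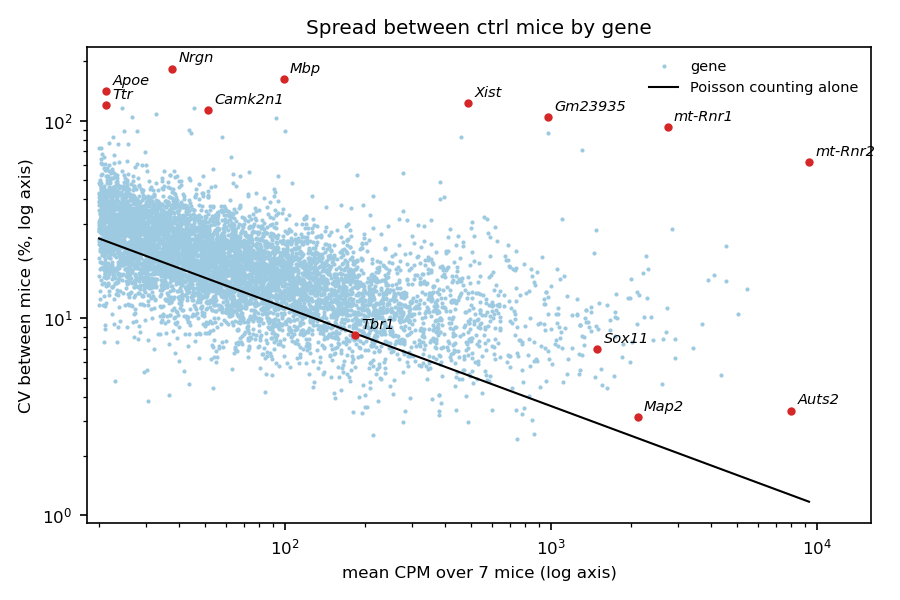
CV of CPM between the 7 mice in percent against mean CPM (both log axes) for the 7123 genes of at least 20 CPM, with the CV that Poisson counting alone gives as a line. *Map2* and *Tbr1* lay near the line, at CVs of 3.14% and 8.18%, and *Nrgn*, *Mbp*, *Apoe* and *Xist* far above it.

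Male and female ctrl mice differed in few genes. Mice 2, S3, S1 and T3 were male, and 6, T4 and T5 female. All males are wild type, and both heterozygous mice, T4 and T5, are female. Within litter 3 sex and *Knl1* genotype coincide, so that a block by litter does not separate them. Of 9567 genes tested with the edgeR likelihood ratio test, 8 passed at 0.05 after adjustment (false discovery rate, FDR), which is 0.0836% of genes. Of these, 7 were higher in males and 1 was lower. An unadjusted p below 0.05 was found in 355 genes. The edgeR quasi-likelihood test called 6 genes, and DESeq2 called 3. With litter as a block, a fit chosen after seeing the data, 17 genes were called, all 8 among them. Those of DESeq2 were *Xist*, *Ddx3y* and *Sfta3-ps*. *Xist*, the RNA that silences 1 X chromosome in females, had between 1056 and 1234 CPM in females and between 1.09 and 17.5 in males (log2 difference, male minus female, −7.96 ± 0.35 SE, FDR 9.58e-223). The Y-linked genes were higher in males, *Uty* by 6.13 ± 0.48 on the log2 scale, *Eif2s3y* by 6.01 ± 0.87, *Kdm5d* by 5.62 ± 0.61 and *Ddx3y* by 5.02 ± 0.77. The groups did not overlap for any of these genes. T5, labelled female, nevertheless had 7 counts of *Uty*, 6 of *Kdm5d* and 3 of *Eif2s3y*. Its 16.8 CPM of *Uty* compare with 0 in mouse 6, 2.94 in T4 and 155 to 198 in males. The source of these counts was not tested.

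None of 4 X-linked genes known to escape X inactivation passed the test, though the estimate was lower in males for all 4. *Kdm6a*, a histone demethylase and the X homolog of *Uty*, differed by −0.46 ± 0.14 (95% interval −0.75 to −0.18, FDR 0.540). *Eif2s3x*, a translation initiation factor, differed by −0.90 ± 0.30 (−1.49 to −0.31, FDR 0.745). These 2 intervals, not adjusted for the number of genes, left out 0. *Kdm5c*, the X homolog of *Kdm5d*, differed by −0.33 ± 0.18 (95% interval −0.68 to 0.02, FDR 1.00), and *Ddx3x*, the X homolog of *Ddx3y*, by −0.03 ± 0.15 (206 CPM in females and 197 in males). Of the other called genes, *Tmem255a* is X-linked and rested on at most 24 counts per mouse (log2 difference 2.73 ± 0.68, FDR 0.00555). *Gm37194*, a transcript of uncertain status, was 116 to 188 CPM in females and 219 to 554 in males (1.22 ± 0.24, FDR 0.00155). *Tmem255a* kept the call in 5 of 10 alternative analyses and *Gm37194* in 11 of 14.

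*Sfta3-ps*, a transcript that lies beside *Nkx2-1* on chromosome 12 (chr12:56488321-56529427), was higher in males as well. It had 34.8 CPM in mouse 2, 6.74 in mouse 6, 65.6 in S3, 39.9 in S1, 35.01 in T3, 19.6 in T4 and 7.19 in T5. The log2 difference was 2.07 ± 0.38 (FDR 6.64e-05). *Nkx2-1* did not pass (log2 difference 1.39 ± 0.57, FDR 1.00), but its highest mouse, S3, and its lowest 2, mouse 6 and T5, were those of *Sfta3-ps*. Without mouse 6, the library lowest in ganglionic eminence and striatum genes, *Sfta3-ps* no longer passed (log2 difference 1.60, FDR 0.0840). No member of the progenitor, neuron, glial or vascular lists passed in this comparison.

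Litter 3 was compared with litters 1 and 2 to describe how its ctrl mice differ from the others. Litter 3 and batch 3 coincide, and consist of 1 wild-type and 2 heterozygous mice. The tests took mice as replicates, with 1 litter on one side. Their FDRs therefore measure spread between mice, and not between litters or batches. Of the 9567 genes, 12 passed an FDR of 0.05 with the edgeR likelihood ratio test (0.125% of genes), 9 higher and 3 lower in litter 3, and 611 had an unadjusted p below 0.05. The edgeR quasi-likelihood test called 0 genes, with 563 at an unadjusted p below 0.05, and DESeq2 called 6. Leaving out 1 mouse changed the count to between 2 (without T3) and 31 (without T4). It was 26 without mouse 2, 4 without S1, 5 without S3 and 9 without T5, of which 3 were among the 12.

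*Colec12*, a scavenger receptor, was 3.67 to 10.4 CPM in litters 1 and 2 and 21.5 to 27.5 in litter 3 (log2 difference 2.23 ± 0.39, FDR 0.000132). *Cped1* was 1.74 to 4.29 CPM against 11.98 to 35.01 (2.30 ± 0.47, FDR 0.00256), and *Bmp6*, a secreted ligand, 0 to 5.20 against 9.79 to 19.2 (2.11 ± 0.53, FDR 0.0464), a call kept in 2 of 10 alternative analyses. These genes rested on at most 22 counts per mouse. The meningeal list was also highest in T3 and T4. *Mbp* was higher in litter 3 (log2 difference 2.76 ± 0.52, FDR 0.000785), and without T5 the difference was 1.07 with an FDR of 0.145. *Igf2*, a growth factor of the meninges and vessels, differed by 1.53 ± 0.41 without passing (FDR 0.109). *Ndn*, an imprinted gene of postmitotic neurons, was lower in litter 3, with 64.4 to 115 CPM in litters 1 and 2 and 30.01 to 45.03 in litter 3 (−1.19 ± 0.27, FDR 0.00941). *Gm13456*, a processed pseudogene, was 4.29 to 8.75 CPM against 15.7 to 32.5 (1.80 ± 0.41, FDR 0.0154). The mitochondrial gene *mt-Nd6*, a subunit of complex I, was 112 to 155 CPM against 194 to 240 (0.74 ± 0.16, FDR 0.00842). The call was kept in 11 of 13 alternative analyses for *Colec12*, 8 of 10 for *Cped1*, 8 of 13 for *Mbp*, 7 of 13 for *mt-Nd6*, 6 of 13 for *Gm13456* and 5 of 13 for *Ndn*, and none was kept by the quasi-likelihood test.

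Several called genes were short non-coding RNAs. *Rny3*, a Y RNA bound by Ro proteins, had 5.22 CPM in mouse 2, 16.5 in mouse 6, 20.2 in S3, 24.6 in S1, 2.501 in T3, 4.89 in T4 and 0 in T5. It was lower in litter 3 (log2 difference −2.49 ± 0.68, FDR 0.0144), but the values of the shallow libraries are 3 counts in mouse 2, 1 in T3 and 0 in T5. Its neighbour *Rny1* had 0 counts in mice 2, T3 and T5. Their sequences are given to show the longest run they share, from GENCODE transcripts on GRCm38 (*Rny3* chr6:47781624-47781725, plus strand, *Rny1* chr6:47788069-47788180, minus strand). Capitals mark that run.
Rny3: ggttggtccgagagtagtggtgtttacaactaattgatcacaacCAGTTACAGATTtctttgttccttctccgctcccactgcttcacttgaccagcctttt
Rny1: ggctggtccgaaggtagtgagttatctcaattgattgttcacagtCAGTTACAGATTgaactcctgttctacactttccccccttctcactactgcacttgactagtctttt
The shared run is 12 bases long. *Rpph1*, the RNA of ribonuclease P, was 306 to 634 CPM in litters 1 and 2 and 163 to 282 in litter 3 (−1.23 ± 0.23, FDR 0.000472). It is 89.0% covered by *Ccnb1ip1* on the same strand, so that its counts are uncertain. *Rmrp*, the related RNA of ribonuclease MRP, differed by −0.84 ± 0.24 without passing (FDR 0.153). The calls of *Rny3* and *Rpph1* were kept in 4 of 10 and 9 of 13 alternative analyses.

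Of the called genes, 3 resemble abundant small RNAs. *Gm24146* had 2.76 to 15.7 CPM in litters 1 and 2 and 17.6 to 50.02 in litter 3 (2.16 ± 0.50, FDR 0.0202), and *Gm23624* 12.6 to 85.3 and 58.7 to 265 (2.26 ± 0.50, FDR 0.0117), where mouse 2 (85.3) lay above T4 (58.7). Both resemble *Rn7sk*, the 7SK RNA that restrains transcription elongation. The first 200 bases of *Gm24146* (chr5:139844930-139845250, plus strand) and *Rn7sk* (chr9:78175303-78175633, minus strand; GENCODE transcripts, GRCm38) are printed with the 5 positions that differ in capitals, to show how alike the copies are.
Gm24146: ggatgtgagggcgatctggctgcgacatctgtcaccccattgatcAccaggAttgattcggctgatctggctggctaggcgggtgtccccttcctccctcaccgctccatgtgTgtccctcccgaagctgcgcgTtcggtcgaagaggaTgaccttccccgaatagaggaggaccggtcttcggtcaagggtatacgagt
Rn7sk: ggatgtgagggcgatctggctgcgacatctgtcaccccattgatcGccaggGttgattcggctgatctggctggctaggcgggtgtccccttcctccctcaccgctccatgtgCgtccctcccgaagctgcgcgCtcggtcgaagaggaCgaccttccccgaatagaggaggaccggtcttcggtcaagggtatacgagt
These stretches are 97.5% identical. Of the 20-base words of *Gm24146*, 129 of 302 (42.7%) also occur in *Rn7sk*, and 57 of 302 (18.9%) of those of *Gm23624*. *Gm24514* (7.65 to 13.9 CPM against 14.7 to 80.0, log2 difference 2.20 ± 0.46, FDR 0.00518) shares 89 of 266 words (33.5%) with *Rn7s1*, a 7SL RNA gene. *Rn7sk* itself differed by −1.25 without passing (FDR 0.5995). Reads that align to several places were not counted, so that counts of such copies are uncertain. The share of reads that did not align uniquely was 29.3% in T3, 26.1% in T5 and 25.7% in mouse 2, and 16.4 to 20.2% in the other mice. The part of this share in the result was not tested.

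**Figure D5:**
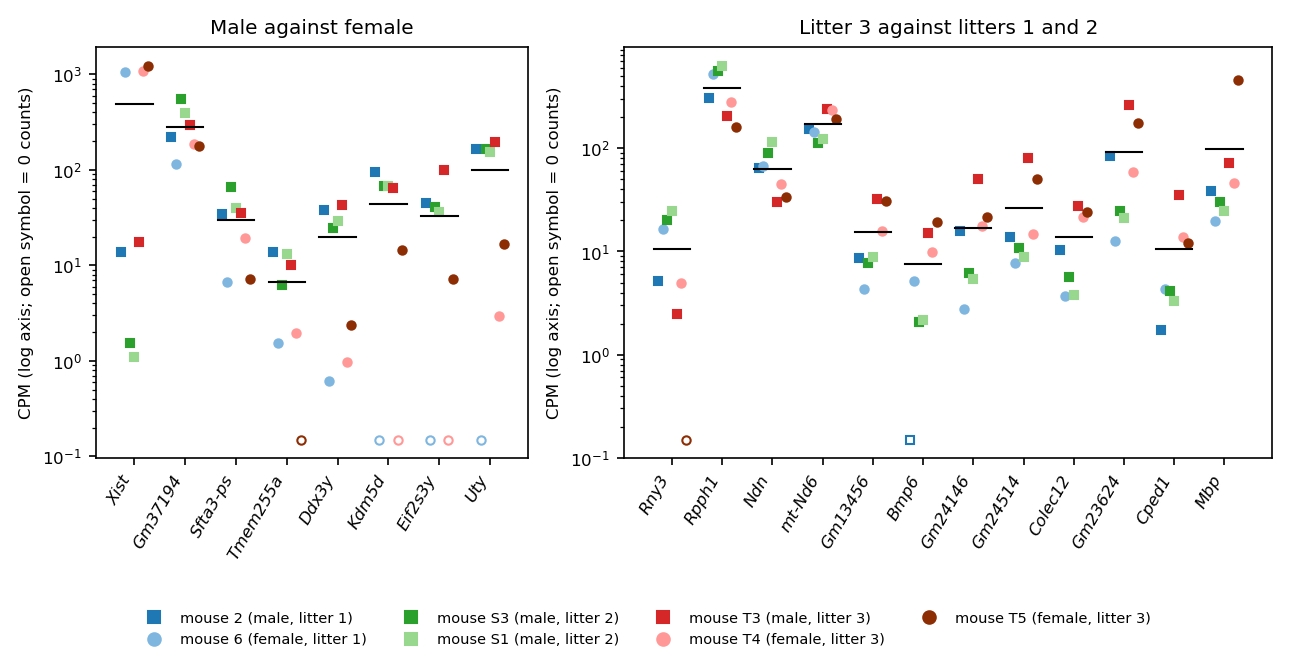
CPM (log axis) in each mouse of the 8 genes called between males and females and of the 12 called between litter 3 and litters 1 and 2, squares for males and circles for females, coloured by mouse, with the mean as a bar and open symbols for 0 counts. *Xist* and the Y-linked genes separated the sexes in all mice, and *Mbp* stood at 460 CPM in T5 alone.

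Cortical marker levels did not pass the test in either comparison. For litter 3 against the others, the log2 difference was −0.04 ± 0.24 for *Pax6* (95% interval −0.52 to 0.43), −0.20 ± 0.21 for *Eomes* (−0.62 to 0.22), 0.02 ± 0.23 for *Neurod6* (−0.44 to 0.47) and 0.04 ± 0.20 for *Gad1* (−0.36 to 0.44). *Olig2* was too low to be tested. *Mbp* was the only member of the 22 lists called.

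*Knl1* itself was expressed in every ctrl mouse, at 50.5 CPM in mouse 2, 47.5 in mouse 6, 72.9 in S3, 68.9 in S1, 77.5 in T3, 83.2 in T4 and 52.7 in T5. The heterozygous mice, T4 and T5, had a mean of 68.0 CPM and the 5 wild-type mice 63.4, and an exact two-sided permutation test over the 21 splits gave p = 0.667. *Trp53* had a mean of 21.1 CPM in the heterozygous and 35.3 in the wild-type mice (exact permutation p = 0.0952). The labels do not say which *Knl1* allele the heterozygous mice carried, and these levels are no check of the genotype.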

How the data were processed

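Per the paper's methods and the labels, total RNA of E15.5 cortex was depleted of ribosomal RNA and made into Click-seq libraries primed with random hexamers. The authors trimmed reads with cutadapt 1.13, aligned them with STAR 2.5.2a to GRCm38 (mm10), removed PCR copies with UMI-tools 0.5.3 and counted unique reads per gene with HTSeq 0.6.1p1 in intersection-nonempty mode. Deposited values are counts, whole and unnormalized, per gene and mouse. The annotation release, feature type and strand setting are not given in the sources used here. The feature and strand described below were read from the counts themselves.

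The 7 ctrl samples were used, grouped by the labels. The 5 summary lines of each file were left out. In the ctrl mice, lines for reads in no gene were 6.06 to 9.52% and ambiguous reads 2.25 to 2.33% of uniquely aligned reads. CPM was the count over the mouse's total of gene counts. Totals ran from 399832 to 3266227, which sets the floors given in the text. Gene identifiers were looked up in a GENCODE annotation (GRCm38; 51719 of 51912 genes; the other 193 held 0.0334% of counts), which gave symbols, biotypes, positions and lengths. Coordinates are counted from 1. Sequences were taken from GENCODE transcripts of this annotation.

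Males were compared with females and litter 3 (batch 3) with litters 1 and 2 in edgeR 4.0.16 (R 4.3.3), with the two-sided likelihood ratio test and Benjamini-Hochberg adjustment over the genes tested, which the study also used. TMM factors and filterByExpr were chosen here. SEs and 95% intervals are on the log2 scale. The common biological coefficient of variation was estimated with an intercept only, and the tests estimated the dispersion under their own design. *Knl1* and *Trp53* were compared by genotype with an exact two-sided permutation test. The likelihood ratio test was also run on simulated counts, with the common dispersion for every gene and no litters. Such counts cannot show how the test performs with the litters of these mice. Alternatives were the edgeR quasi-likelihood test, DESeq2 1.42.0, RLE size factors, all listed genes, batch or sex as a covariate, wild-type mice only, and leaving out each mouse. Litter as a block in the comparison of the sexes was added after seeing the data. Python 3.11.15 and matplotlib 3.10.9 were used for CPM values and plots.

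Named genes were the members of the marker lists, the 15 genes of highest CPM, the 10 protein-coding genes highest by CPM and per kb, the 5 highest of each larger biotype, the 10 most and 10 least variable of at least 20 CPM, and the 10 of smallest p in each direction among called genes. Genes of glutamate and GABA receptors, chloride transporters, escape genes, mature neurons, small RNAs and mitochondrial mRNAs were added after seeing the data. So were the genes that cover or resemble a named gene, *Rbfox1*, *Cdk8* and *Cmss1*. Some named genes are not reported here. The members and lists were chosen with earlier results of these data known.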

Additional observations from a re-analysis of the deposited data

Results flagged for a closer look

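A value was singled out where the highest or lowest of the 7 mice lay beyond Dixon's 95% limit from the others. This held for 19 of 168 values tested (11.3%), over 140 genes and the list sums, where chance gives about 1 in 20, and many of the genes had been named for their spread. T5 was the mouse in question in 9 cases, mouse 6 in 4, T3 in 4, S3 in 1 and mouse 2 in 1.

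In T5, the summed level was 541 CPM for myelin genes (others 35.2 to 95.04) and 453 CPM for astrocyte genes (192 to 264). Single genes high in T5 were *Mbp* at 460 CPM (19.9 to 72.5), *Slc1a2* at 359 (150 to 213), *Camk2n1* at 180 (14.1 to 47.5), *Apoe* at 88.6 (5.00 to 16.6), *Cst3* at 88.6 (9.29 to 19.2) and *Maf*, an interneuron factor also expressed elsewhere, at 69.5 (17.6 to 38.3). *Gap43*, the growth-cone protein of extending axons, was low in T5 at 108 CPM (162 to 201).

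In T3, meningeal genes summed to 185 CPM (12.6 to 81.3), *Igf2* was 80.03 CPM (5.22 to 34.3), *Flt1* 47.5 (17.1 to 22.6) and *Sstr2*, a somatostatin receptor, 42.5 (13.9 to 21.5). In mouse 6, Cajal-Retzius genes summed to 764 CPM (615 to 677), *Tubb2b*, a tubulin, was 692 CPM (340 to 460), *Gad2* was low at 159 (270 to 346) and AC149090.1 was high at 158 (5.69 to 54.0). In S3, *Notch1*, a receptor of progenitors, was 154 CPM (104 to 122). In mouse 2, *Nrgn* was 193 CPM (1.96 to 28.7). What sets these mice apart was not tested.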

How the results depend on the processing

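All 255 recomputed log2 differences of the 20 called genes kept their direction, and 179 kept the call. Between males and females 8 genes were called, against 3 by DESeq2, 17 with litter as a replicate block, 48 in wild-type mice only and 7 to 21 when 1 mouse was left out. For litter 3 the count of 12 became 0 with the quasi-likelihood test, 6 with DESeq2, 30 over all listed genes, 29 in wild-type mice only and 2 to 31 when 1 mouse was left out. In wild-type mice only, mouse 6 was the only female and T3 the only mouse of litter 3, and each is then assumed to vary like the others. The common biological coefficient of variation, 0.136, was 0.159 over all listed genes, 0.145 in batches 1 and 2, 0.146 in wild-type mice and 0.128 to 0.143 when 1 mouse was left out. Of the 10 protein-coding genes highest per kb of body, 3 were among the highest per kb of exons. The mean sum of the myelin list was 53.0 CPM without T5, and that of the meningeal list 33.2 CPM without T3. Leaving out genes with over 1% of counts gave no value, since 0 genes passed that share. The causes were not tested. The block by litter was chosen after seeing the data, and litter 2 held males only. For litter 3 against the others no paired analysis was possible because no litter spans both groups. Depth limits genes under 7.50 CPM in the shallowest library.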

Other observations

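Receptor genes of the maturing neuron were read at the level of subunits, in lists added after seeing the data. Of the NMDA receptor subunits, *Grin2b*, the form of the immature cortex, had a mean of 1121 CPM ± 183 (SD, n = 7 mice; 915 to 1387) and *Grin2a*, which becomes prominent after birth, 57.8 ± 20.5 (33.6 to 91.0). Per kb of gene body these were 2.44 ± 0.398 and 0.135 ± 0.0479, and the mice did not overlap. *Gria2*, the AMPA receptor subunit that limits calcium entry, had 6.80 CPM per kb ± 0.934. Of 15 glutamate receptor genes, 14 reached 1 CPM.

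All 11 GABA-A receptor genes listed reached 1 CPM. Their summed level was 1308 CPM ± 163. Of the chloride transporters that set the direction of the GABA response, *Slc12a2* (NKCC1), which imports chloride, had 1.21 CPM per kb ± 0.217, and *Slc12a5* (KCC2), which exports it, 0.762 ± 0.163.

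Of 13 mitochondrial mRNAs, 7 had counts, with *mt-Co1* at 2100 CPM ± 284, and 6 (*mt-Nd3*, *mt-Nd4l*, *mt-Co2*, *mt-Co3*, *mt-Atp6* and *mt-Atp8*) were at 0 in every mouse. They encode subunits of the respiratory chain and ATP synthase that all these cells use, so they are given only as listed at 0. The cause was not tested.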
